A study of Physcomitrium patens with 47 samples.

Results

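COX11 KO and NDUFA5 KO plants of the moss Physcomitrium patens were compared directly with each other at zeitgeber time 2 (ZT2), 2 h after lights on, in 10 of the 47 RNA libraries of the series. The libraries were chosen by their titles. COX11 KO had 5 libraries, 3 of line 150 and 2 of line 152, and NDUFA5 KO had 5 libraries, 3 of line 46 and 2 of line 48. In each knockout a segment of the targeted gene had been disrupted by an antibiotic resistance cassette through homologous recombination, and the 2 lines of a knockout were made independently. WT plants without a cassette gave 4 libraries at ZT2, which were used here to describe levels. Libraries of ZT0, the end of the night (5 COX11 KO, 4 NDUFA5 KO and 6 WT), and of ZT6 (5 COX11 KO, 5 NDUFA5 KO and 8 WT) served for the comparison of times. The plants, a mixture of filamentous protonema and young leafy gametophores, were grown for 15 days over liquid medium in closed boxes in cycles of 12 h light and 12 h dark. Freezing took place in the lit chamber at ZT2 and at ZT6, and in dim green light, after a night in wrapped boxes, at ZT0.

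Mitochondrial respiration passes electrons along a chain of complexes to oxygen. NDUFA5 is a subunit of complex I, the NADH dehydrogenase through which electrons enter the chain, and COX11 is an assembly factor of complex IV, cytochrome c oxidase, at its end, where it helps to deliver copper. Plants also hold alternative NAD(P)H dehydrogenases and an alternative oxidase, which can carry electrons past complex I and past complex IV. The 2 knockouts therefore interrupt the chain at its entry and at its end, and setting them against each other shows where their transcriptomes part without passing through WT.

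Transcripts were counted by 3′ tag sequencing, in which reads stem from the 3′ ends of messenger RNAs, so counts do not grow with transcript length. Genes are given by the identifiers (IDs) of the deposited table. None of these IDs was found in the reference annotation used here (0 matches), so no gene is named, no gene is given a function, and neither the targeted genes COX11 and NDUFA5 nor markers of the labelled tissue were checked. Values are CPM (counts scaled to a common library size, with library totals adjusted by TMM), and fold changes are COX11 KO over NDUFA5 KO unless stated. A gene was called at a Benjamini-Hochberg false discovery rate of 0.05 in edgeR's quasi-likelihood test over all 18460 genes tested, with the spread estimated from all 47 libraries.

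The 10 libraries held 5187498 to 6353738 counts in genes. Their sample codes begin with A or Z, a letter whose meaning is not stated. At ZT2 the NDUFA5 KO libraries of line 48 carry A and those of line 46 carry Z, so that line and letter cannot be told apart in this knockout. COX11 KO has 4 libraries with A and 1, 150-3, with Z, and all 4 WT libraries of ZT2 carry A. Whether replicates were grown as separate cultures is not in the labels. The p-values therefore rest on a spread between libraries that can be partly technical. In the test between the knockouts, libraries of the same line were counted as separate replicates, although each knockout has only 2 independent lines.

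The libraries of COX11 KO lay together and those of NDUFA5 KO split by line. On the first principal component of log2 CPM, which held 38.7% of the variance among the 10 libraries, COX11 KO scored between -44.9 and -31.4. NDUFA5 KO line 46 scored 58.5, 39.3 and 56.7, and line 48 scored 19 and 20.2, between COX11 KO and line 46. The second component held 29.5% and set line 48 apart, at -70.2 and -56.7, from COX11 KO at -13.0 to 32.2 and from line 46 at 1.19 to 39.5. The median gene had an SD of log2 CPM of 0.212 over the 5 COX11 KO libraries and 0.296 over the 5 NDUFA5 KO libraries. Within lines the median SD was 0.192 in line 150 and 0.159 in line 152, and 0.200 in line 46 and 0.159 in line 48, so the wider spread of NDUFA5 KO lay between its lines.

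At ZT2, 5315 of the 18460 genes, or 28.8%, differed between COX11 KO and NDUFA5 KO. Of these, 2503 were higher in COX11 KO (13.6% of genes tested) and 2812 lower (15.2%). Most differences were below 2-fold. The median size of a called difference was 0.68 on the log2 scale, and 1437 genes, 7.78% of those tested, were called with at least a 2-fold difference, 615 of them higher and 822 lower. Differences of at least 4-fold were mostly lower, with 84 genes higher and 313 lower in COX11 KO. The 47.1% share of higher genes among those called depended on the scaling and was 63% when library totals were used without TMM.

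The genes whose IDs begin with Pp3c2_, Pp3c25_ or Pp3c27_, 1794 of those tested, are described apart from the rest further on. Without them 4487 of 16649 genes, or 27%, were called, 2197 higher and 2290 lower in COX11 KO (49% higher, and 63.8% with library totals only). Of these, 1221 differed at least 2-fold, 521 higher and 700 lower, and 344 at least 4-fold, 77 higher and 267 lower. The excess of large differences on the lower side was thus present with and without those IDs.

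In 3432 genes, 18.6% of those tested, the 5 COX11 KO libraries all lay on the same side of the 5 NDUFA5 KO libraries. All COX11 KO libraries were above all NDUFA5 KO libraries in 1688 genes and below them in 1744. Outside the 3 prefixes the numbers were 1386 and 1628. Among the 1437 genes called with at least a 2-fold difference, the groups did not overlap in 443 higher and 415 lower genes, and in the others at least 1 library of a knockout reached into the range of the other.

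The share of genes called grew with abundance. The genes were divided by level into 4 classes of 4615, with medians of 2.91, 11.7, 26.5 and 80.6 CPM. From the lowest to the highest class 18.6%, 23.8%, 31.4% and 41.3% were called. Differences of at least 2-fold were called in 14.4%, 6.02%, 4.59% and 6.13% of these classes, so many calls among abundant genes were of small size.

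The genes with the largest difference in mean CPM that were also called against line 46 and against line 48 taken singly are shown for each direction. A total of 223 higher and 258 lower genes met the conditions of at least 2-fold, no overlap and a call against each line, from which 2 were taken per direction. Pp3c18_8100 had 2621, 2938 and 3009.5 CPM in COX11 KO line 150 and 2785 and 2853 CPM in line 152. In NDUFA5 KO it had 1126, 1021 and 1102 CPM in line 46 and 1772 and 1273 CPM in line 48. All COX11 KO libraries were higher, by a log2 fold change of 1.17 ± 0.17 (SE; edgeR adjusted p = 1.5e-06), and the 4 WT libraries, at 2710 to 3108 CPM, overlapped the range of COX11 KO.

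Pp3c1_19190 showed the same order with a larger difference. COX11 KO had 2084, 2210 and 1826 CPM in line 150 and 1944 and 2071 CPM in line 152. NDUFA5 KO had 501, 392.5 and 455 CPM in line 46 and 954 and 616 CPM in line 48. The log2 fold change was 1.80 ± 0.22 (SE; edgeR adjusted p = 3.2e-08), with line 48 nearer to COX11 KO than line 46, and WT had 1729 to 2255 CPM.

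Pp3c22_15040 was lower in COX11 KO. It had 1849, 1412 and 2087 CPM in line 150 and 1104 and 1328 CPM in line 152. In NDUFA5 KO it had 4655, 4982 and 4742 CPM in line 46 and 3949 and 3995.5 CPM in line 48. The log2 fold change was -1.52 ± 0.19 (SE; edgeR adjusted p = 4.4e-08), and WT, at 1376 to 1720 CPM, lay within the range of COX11 KO.

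Pp3c4_13060 was 5.68-fold lower in COX11 KO. Its levels were 639.5, 728 and 436 CPM in line 150 and 754 and 529 CPM in line 152. In NDUFA5 KO they were 3939.7, 3953 and 4244 CPM in line 46 and 2891 and 2504 CPM in line 48. The log2 fold change was -2.51 ± 0.34 (SE; edgeR adjusted p = 3.11e-07). It was -2.04 with libraries of letter A only, where NDUFA5 KO is line 48 alone. With letter Z only, 1 library of COX11 KO and 3 of line 46, it was -3.21. WT libraries had 540.1 to 942 CPM, so the range of COX11 KO reached below that of WT and the 2 overlapped. Letter A only also gave the smallest log2 fold changes of Pp3c18_8100 (0.87) and Pp3c1_19190 (1.39) among the alternatives. For Pp3c22_15040 the smallest, -1.2, came with letter Z only.

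**Figure D1:**
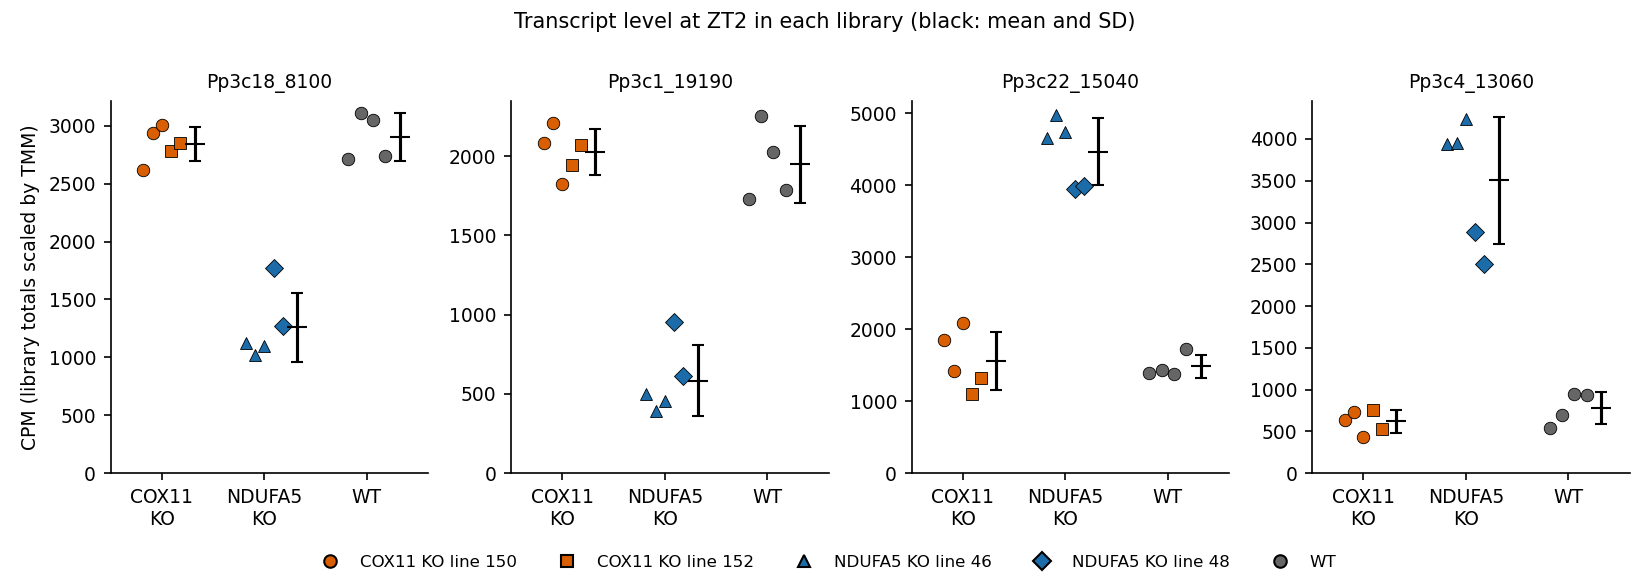
CPM of the 4 genes in each library at ZT2, with COX11 KO left of NDUFA5 KO and WT. Points are libraries, with the symbol giving the line, and the black marks are the mean and SD of the group. In each panel the 5 COX11 KO libraries are separate from the 5 NDUFA5 KO libraries and overlap the range of the 4 WT libraries.

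Where the knockouts differed, WT was more often near COX11 KO. Outside the 3 prefixes the WT mean of log2 CPM was nearer to the mean of COX11 KO than to that of NDUFA5 KO in 76.2% of the 2058 genes called higher in COX11 KO and in 72.2% of the 2529 called lower, taking the calls of the fit to all genes. Over all 16666 genes outside these prefixes the share was 61.6%. The WT libraries do not enter the contrast between the knockouts, but the shares are descriptions, and no test was made on them. WT has the code letter of 4 of the 5 COX11 KO libraries and of 2 of the 5 NDUFA5 KO libraries, and the part of the letter in these shares was not tested. With library totals only, the shares were 66.6% and 81%, against 58.7% over all genes.

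Among the genes called higher in COX11 KO, the WT mean lay above both knockouts in 54.3%, between them in 36.1% and below both in 9.67%. Relative to WT these genes had a median of -0.056 on the log2 scale in COX11 KO and of -0.737 in NDUFA5 KO (-0.791 in line 46 and -0.652 in line 48). Among the genes called lower in COX11 KO, the WT mean lay above both knockouts in 12.0%, between them in 44.9% and below both in 43.1%. The split moved when library totals were used without TMM. WT then lay above both in 40.5% and between them in 46.3% of the higher genes, and between them in 33% and below both in 57.7% of the lower genes, so that the most frequent place changed in both sets. With TMM, the medians of the lower genes relative to WT were -0.064 in COX11 KO and 0.531 in NDUFA5 KO (0.566 in line 46 and 0.470 in line 48). Among the genes called lower with at least a 2-fold difference the median was -0.257 in COX11 KO and 1.129 in NDUFA5 KO, and among those called higher with at least a 2-fold difference it was -0.012 and -1.243. In each of these sets the median was nearer to WT in COX11 KO than in either line of NDUFA5 KO.

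**Figure D2:**
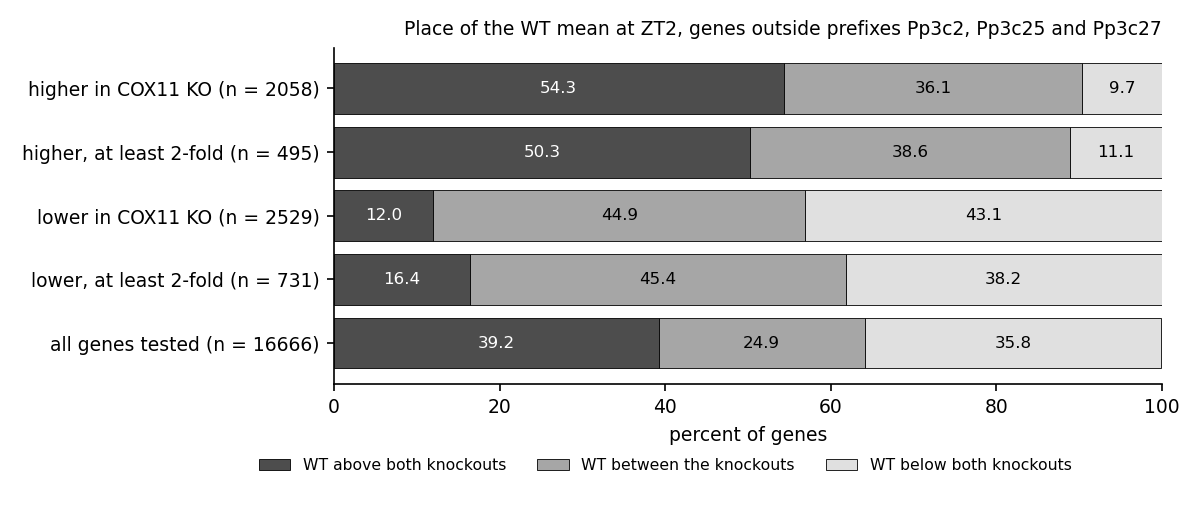
Percent of genes outside prefixes Pp3c2, Pp3c25 and Pp3c27 whose WT mean at ZT2 lay above both knockouts, between them or below both. Rows are the genes called higher or lower in COX11 KO than in NDUFA5 KO, all of them or those with at least a 2-fold difference, and all genes tested outside the prefixes. WT lay above both knockouts in 54.3% of the genes higher in COX11 KO and in 12.0% of those lower, against 39.2% of all genes.

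Against NDUFA5 KO line 46 alone, 5227 genes (28.3%) were called in COX11 KO, 2489 higher and 2738 lower, and 1790 at least 2-fold. Higher genes were 47.6% of these calls, and 67.7% with library totals only, under which the median gene had a log2 fold change of 0.154, against 0.008 with TMM. Against line 48 alone, 4219 genes (22.9%) were called, 2017 higher and 2202 lower, and 1647 at least 2-fold. Without the 3 prefixes the counts were 4602 of 16649 (27.6%; 2362 higher and 2240 lower) against line 46, and 2884 (17.3%; 1238 higher and 1646 lower) against line 48. The count against line 48 rested on few libraries, with 1721 called without 48-1 and 2663 without 48-2. Both comparisons use the same COX11 KO libraries, and line 48 has 1 library fewer than line 46.

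No gene was called between the lines of COX11 KO. Between line 150 (3 libraries) and line 152 (2 libraries) edgeR's test gave 0 calls, while 586 genes had an unadjusted p below 0.05, and 1 gene passed in DESeq2. Leaving out 150-2 gave 3 calls. In NDUFA5 KO the lines differed in 2937 genes (15.9%), 1567 higher and 1370 lower in line 46 than in line 48, with 1519 at least 2-fold. Higher genes were 53.4% of these calls and 36.7% with library totals only. Without the 3 prefixes 1997 of 16649 genes (12.0%) were called, 975 higher and 1022 lower in line 46. The count fell to 611 without 48-1, 1891 without 48-2, 1833 without 46-1 and 1895 without 46-3, and since each line carries 1 code letter, line and letter cannot be told apart here. Whether the lines differ more in NDUFA5 KO than in COX11 KO was not tested.

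Genes with a large difference between lines 46 and 48 behaved unevenly against COX11 KO. Pp3c12_22320 had 5361, 2792 and 4721 CPM in line 46 and 840.3 and 1136 CPM in line 48, a log2 fold change of 2.12 ± 0.57 (SE; edgeR adjusted p = 0.00838). The 5 COX11 KO libraries had 1806 to 3469 CPM, above both libraries of line 48 and partly within the range of line 46. Over all 10 libraries this gene did not pass the test between the knockouts (log2 fold change -0.21 ± 0.40, edgeR adjusted p = 0.738).

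Pp3c19_5170 had 3691, 1933 and 3188 CPM in line 46 and 880.4 and 1005 CPM in line 48, a log2 fold change of 1.64 ± 0.42 (SE; edgeR adjusted p = 0.00635). COX11 KO had 2903 to 5081 CPM. The difference from COX11 KO was 2.00 ± 0.41 in log2 against line 48 (edgeR adjusted p = 0.000398) and 0.36 ± 0.32 against line 46 (adjusted p = 0.448). Over all 10 libraries Pp3c19_5170 was called between the knockouts (log2 fold change 0.82 ± 0.31, edgeR adjusted p = 0.0436), though it did not pass against line 46.

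In the other direction, Pp3c19_3750 had 1745, 943.5 and 1265 CPM in line 46 and 7623 and 4844.5 CPM in line 48, a log2 fold change of -2.24 ± 0.67 (SE; edgeR adjusted p = 0.0184). Its COX11 KO libraries were far apart, with 214.5, 2329.6 and 614 CPM in line 150 and 3372.5 and 3065 CPM in line 152, and WT had 5398 to 9291 CPM. Pp3c19_3740, the ID next to it in number, had 223, 229 and 211 CPM in line 46 and 1035 and 719 CPM in line 48. Its log2 fold change was -1.99 ± 0.51 (SE; edgeR adjusted p = 0.0059), and COX11 KO had 65.5 to 231.6 CPM. Pp3c19_3740 was called between the knockouts (log2 fold change -1.60 ± 0.43, edgeR adjusted p = 0.00391). It passed against line 48 (-2.49 ± 0.44, adjusted p = 5.45e-05) and not against line 46 (-0.50 ± 0.41, adjusted p = 0.398). Pp3c19_3750 was not called between the knockouts (-0.78 ± 0.56, edgeR adjusted p = 0.315). Whether these 2 genes are near copies that share reads was not checked, as no sequence was at hand. None of the 4 line differences passed the test without 48-1, where the log2 fold changes were 1.89, 1.52, -1.91 and -1.73 in the order given and edgeR's adjusted p was 0.101 to 0.179. Over all alternatives the adjusted p ran from 0.000708, in DESeq2, to 0.179. Pp3c19_3750 also did not pass without 46-2 (edgeR adjusted p = 0.0602) or without 46-3 (0.0613).

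The IDs of 3 prefixes, a prefix being the part of an ID before the _ sign, departed from the rest as groups. Of the 1143 Pp3c2 genes tested, 37.3% were called higher in COX11 KO than in NDUFA5 KO and 4.81% lower, with a median log2 fold change of 0.343. Of the 396 Pp3c25 genes, 3.03% were called higher and 35.4% lower (median -0.388), and of the 255 Pp3c27 genes 2.75% higher and 34.5% lower (median -0.374). In the other 24 numbered prefixes 9.31% to 15.8% of genes were called higher and 12.2% to 20.4% lower, with medians of -0.071 to 0.033. The signs of the 3 medians were the same with DESeq2 size factors and with library totals only (0.442, -0.293 and -0.283). These prefixes were singled out by earlier results of the same data, so their counts describe the libraries and are no independent evidence.

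The shift of these prefixes differed between the NDUFA5 KO lines. Against line 46 the medians were 0.163 for Pp3c2, -0.020 for Pp3c25 and 0.005 for Pp3c27. Against line 48 they were 0.696, -0.718 and -0.741. With library totals only the Pp3c25 median against line 46 changed sign to 0.119, where the median outside the 3 prefixes was 0.141. In line 46 against line 48 directly, 443 of the 1143 Pp3c2 genes, 222 of the 396 Pp3c25 genes and 137 of the 255 Pp3c27 genes were called, where 15.9% of all genes were. In line 46, 38% of the Pp3c2 genes were called higher and 0.787% lower. Of the Pp3c25 genes 3.54% were called higher and 52.5% lower, and of the Pp3c27 genes 1.57% higher and 52.2% lower. The number called between these lines over all prefixes fell to 611 without 48-1, and the prefixes were not counted apart there.

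Each library was then set against the WT mean at ZT2. The median Pp3c2 gene was higher than in WT by 0.911 to 0.927 on the log2 scale in the 5 COX11 KO libraries, a mean of 0.917 ± 0.00623 (SD, n = 5), which is a 1.89-fold level. It was higher by 0.783, 0.788 and 0.789 in line 46, a 1.73-fold level on average, but by only 0.153 in 48-1 and 0.344 in 48-2. The WT libraries themselves lay between -0.025 and 0.022. All 10 knockout libraries were thus above WT in Pp3c2, with COX11 KO highest, line 46 next and line 48 lowest, and these 3 sets did not overlap.

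The median Pp3c25 gene stood at -0.065 to -0.026 in COX11 KO and at 0.012 to 0.045 in line 46, but at 0.809 in 48-1 and 0.490 in 48-2. The median Pp3c27 gene stood at -0.069 to -0.040 in COX11 KO and at -0.015 to -0.007 in line 46, but at 0.783 in 48-1 and 0.544 in 48-2. The library with the higher Pp3c25 and Pp3c27 median, 48-1, was the one with the lower Pp3c2 median. The median of all other genes lay between -0.037 and 0.001 in the 10 knockout libraries.

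**Figure D3:**
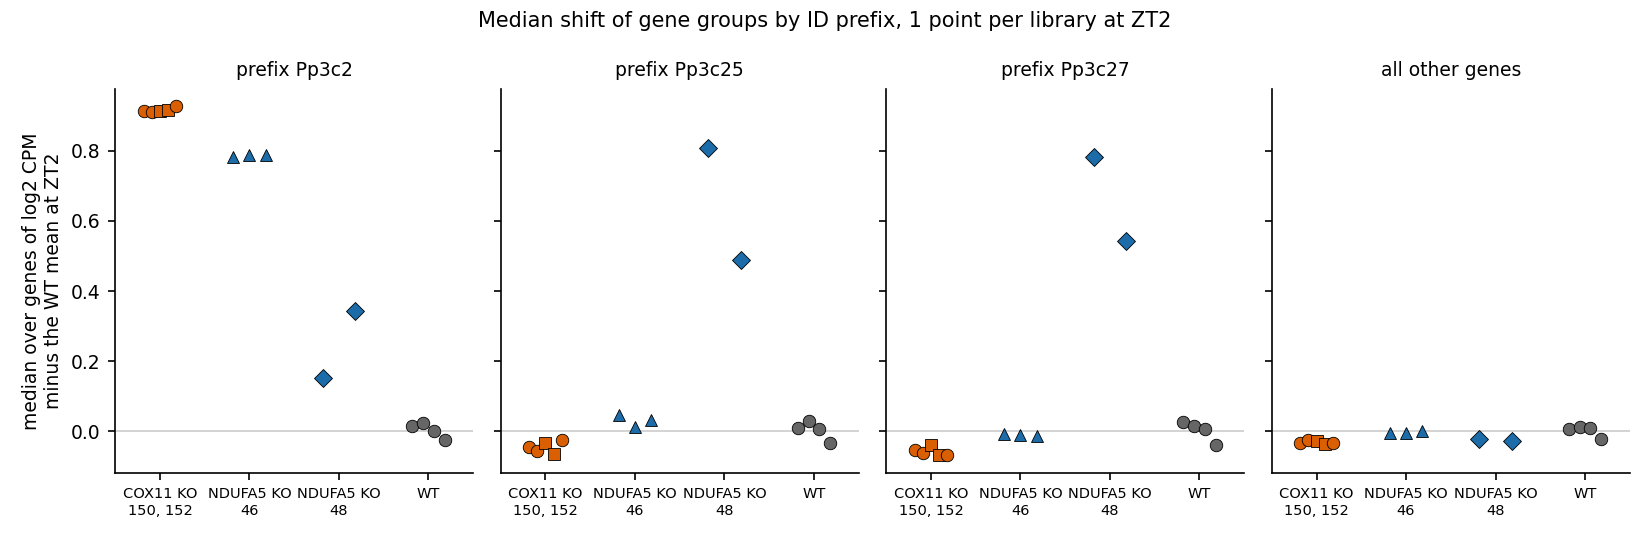
Median over the genes of a prefix of log2 CPM minus the WT mean at ZT2, with 1 point per library (COX11 KO circles 150 and squares 152, NDUFA5 KO triangles 46 and diamonds 48, WT grey). The line 48 libraries stand apart from the other 8 knockout libraries in Pp3c2, at 0.153 and 0.344, and in Pp3c25 and Pp3c27, at 0.490 to 0.809.

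At the other times line 48 did not show the raised Pp3c25 and Pp3c27 medians, but its Pp3c2 medians were again the lowest. Its Pp3c2 medians above WT of the same time were 0.761 and 0.774 at ZT0 and 0.453 and 0.751 at ZT6. At ZT0 COX11 KO stood at 0.914 to 0.969 and line 46 at 0.911 and 0.921. At ZT6 COX11 KO stood at 0.88 to 0.914 and line 46 at 0.779 to 0.916. The Pp3c25 medians of line 48 were -0.103 and -0.097 at ZT0 and 0.032 and -0.085 at ZT6. Its Pp3c27 medians were -0.211 and -0.184 at ZT0 and 0.110 and 0 at ZT6. The raised Pp3c25 and Pp3c27 medians of 0.490 to 0.809 were thus seen in the 2 line 48 libraries of ZT2 and in no other line 48 library. In line 48 the libraries of ZT2 carry the code letter A and all those of ZT0 and ZT6 carry Z. Time and letter thus cannot be told apart within this line, and the labels give no further detail on these libraries.

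The shift ran along the whole of each prefix. The genes were divided into 10 windows in the order of their ID numbers, with 114 to 115 genes a window for Pp3c2, 39 to 40 for Pp3c25 and 25 to 26 for Pp3c27. The median log2 fold change of COX11 KO against line 48 lay between 0.576 and 0.817 in the Pp3c2 windows, between -0.855 and -0.566 in the Pp3c25 windows and between -0.976 and -0.585 in the Pp3c27 windows. Against line 46 the Pp3c2 windows lay between 0.088 and 0.263, above 0 in each, and the windows of the other prefixes fell on both sides of 0 (-0.325 to 0.154 for Pp3c25 and -0.100 to 0.164 for Pp3c27).

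**Figure D4:**
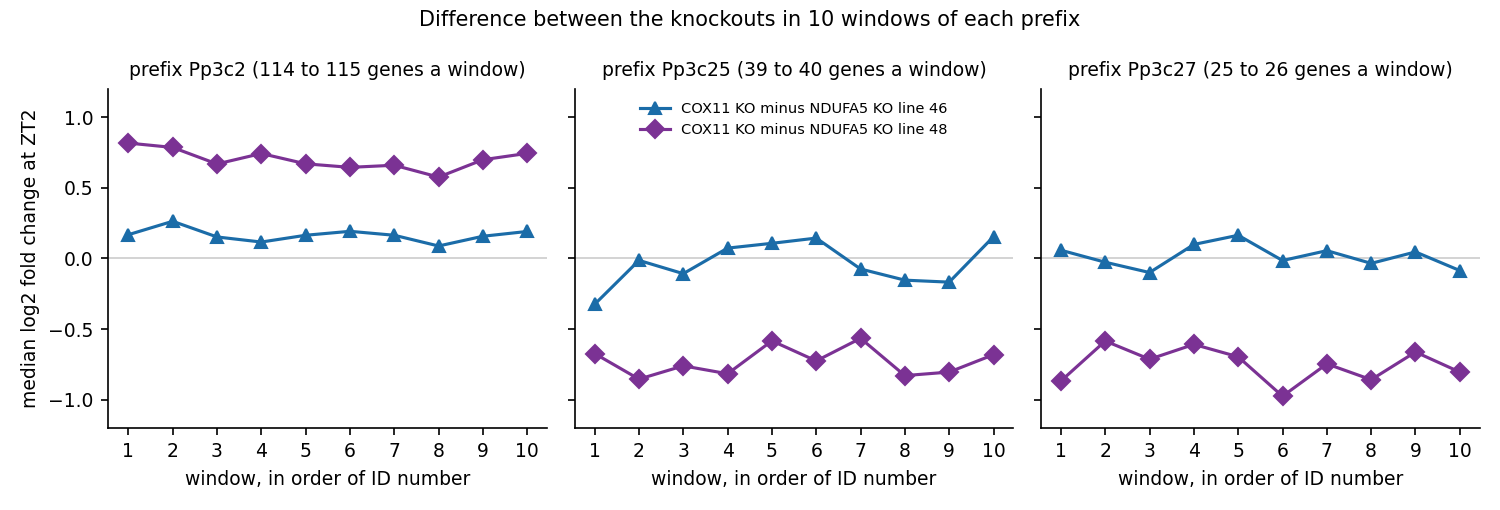
Median log2 fold change at ZT2 of COX11 KO against NDUFA5 KO line 46 (triangles) and line 48 (diamonds) in 10 windows of each prefix, in order of ID number. Against line 48 the windows of Pp3c2 lie at 0.576 to 0.817 and those of Pp3c25 and Pp3c27 at -0.976 to -0.566, and against line 46 the windows stay between -0.325 and 0.263.

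Of the 2503 genes called higher in COX11 KO, 426 had the prefix Pp3c2, which is 17%, and of the 2812 called lower 228 had the prefix Pp3c25 or Pp3c27, which is 8.11%. Together the 3 prefixes made up 17.8% of the higher and 10.1% of the lower genes, against 9.72% of the genes tested.

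The difference between the knockouts was not the same at the times sampled. It differed between ZT2 and ZT0 in 6557 genes (35.5%), in 3238 of them with a positive and in 3319 with a negative interaction, the log2 fold change at ZT2 minus that at ZT0. Positive interactions were 49.4% of these with TMM and 23.5% with library totals only, a scaling that moved the median interaction of all genes to -0.380, against -0.085 with TMM. Between ZT2 and ZT6 the difference changed in 3520 genes (19.1%), 1595 positive and 1925 negative. At each time the interaction uses the same ZT2 libraries, so the 2 counts are not independent. Most COX11 KO libraries of ZT2 carry the code letter A, while all of ZT0 and most of ZT6 carry Z. NDUFA5 KO has both letters at each time. Time and letter are therefore mixed in these interactions, unequally between the knockouts, and the part of the letter was not tested.

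Pp3c6_7260 turned over between ZT2 and ZT6. At ZT0 it had 227 ± 18.4 CPM in COX11 KO (SD, n = 5) and 2490.5 ± 154 CPM in NDUFA5 KO (n = 4). At ZT2 the means were 286 ± 13.7 and 792 ± 127 CPM (n = 5 each), where COX11 KO libraries ran from 267 to 305 and NDUFA5 KO libraries from 616 to 918. At ZT6 COX11 KO, at 211 ± 24.6 CPM, was above NDUFA5 KO, at 96.8 ± 28.7 CPM (n = 5 each). Between the knockouts the log2 fold changes at ZT0, ZT2 and ZT6 were -3.45, -1.47 and 1.12, and the interaction of ZT2 with ZT0 was 1.98 ± 0.20 (SE; edgeR adjusted p = 9.59e-11).

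Pp3c3_17920 had 181 ± 17.4 CPM in COX11 KO and 1122 ± 199 CPM in NDUFA5 KO at ZT0. At ZT2 it had 167 ± 8.93 CPM in COX11 KO and 509 ± 101 CPM in NDUFA5 KO, and at ZT6 197 ± 14.9 and 196 ± 19.9 CPM. The COX11 KO level varied little across the times while that of NDUFA5 KO was lower at each later time, and the interaction with ZT0 was 1.02 ± 0.17 (SE; edgeR adjusted p = 4.52e-06). WT had 354 ± 26.9 CPM at ZT2 (n = 4), between the knockouts.

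Pp3c9_5910 peaked at ZT2 in NDUFA5 KO. COX11 KO had 128 ± 166 CPM at ZT0, 154 ± 24.7 CPM at ZT2 and 34.3 ± 9.05 CPM at ZT6 (SD, n = 5 each), with ZT0 libraries as far apart as 11.7 and 415 CPM. NDUFA5 KO had 34.2 ± 20.6 CPM at ZT0 (n = 4), then 2613, 1064 and 2302 CPM in line 46 and 773 and 483 CPM in line 48 at ZT2, and 16.8 ± 6.11 CPM at ZT6 (n = 5). The interaction with ZT0 was -5.10 ± 1 (SE; edgeR adjusted p = 9.23e-05).

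Pp3c13_13170 peaked at ZT2 in COX11 KO, with 468.5 ± 110 CPM at ZT0, 1510.2 ± 178 CPM at ZT2 and 412 ± 105 CPM at ZT6 (n = 5 each). NDUFA5 KO had 63.9 ± 15.2 CPM at ZT0 (n = 4), 595 ± 201.5 CPM at ZT2 and 570.4 ± 221 CPM at ZT6 (n = 5 each). WT also stood highest at ZT2, with 684 ± 267, 2454 ± 187 and 951 ± 239 CPM at the 3 times (n = 6, 4 and 8). The interaction was -1.53 ± 0.37 with ZT0 (SE; edgeR adjusted p = 0.0012) and 1.81 ± 0.36 with ZT6 (adjusted p = 0.000241).

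The other genes taken for the comparison with ZT6 were 3 of those already shown for ZT2, and in each the knockouts differed at ZT2 but did not pass the test at ZT6. Pp3c1_19190 had 2558 ± 521 CPM in COX11 KO and 2477 ± 739 CPM in NDUFA5 KO at ZT6 (SD, n = 5 each; interaction 1.75 ± 0.30, edgeR adjusted p = 4.25e-05). Pp3c22_15040 had 2524 ± 555 and 2433 ± 400 CPM in these groups at ZT6 (interaction -1.57 ± 0.26, edgeR adjusted p = 2.23e-05). Pp3c4_13060 had 242 ± 136 and 287 ± 251 CPM there (interaction -2.26 ± 0.46, edgeR adjusted p = 0.000422). Its NDUFA5 KO level at ZT6 was 731.1 CPM in 46-3, the library whose labels give different lines, and 120.2 to 235.4 CPM in the other 4, and without 46-3 at ZT6 the interaction was -2.96. At ZT0 the same genes differed in the same direction as at ZT2, with log2 fold changes of 1.78, -1.79 and -3.41.

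**Figure D5:**
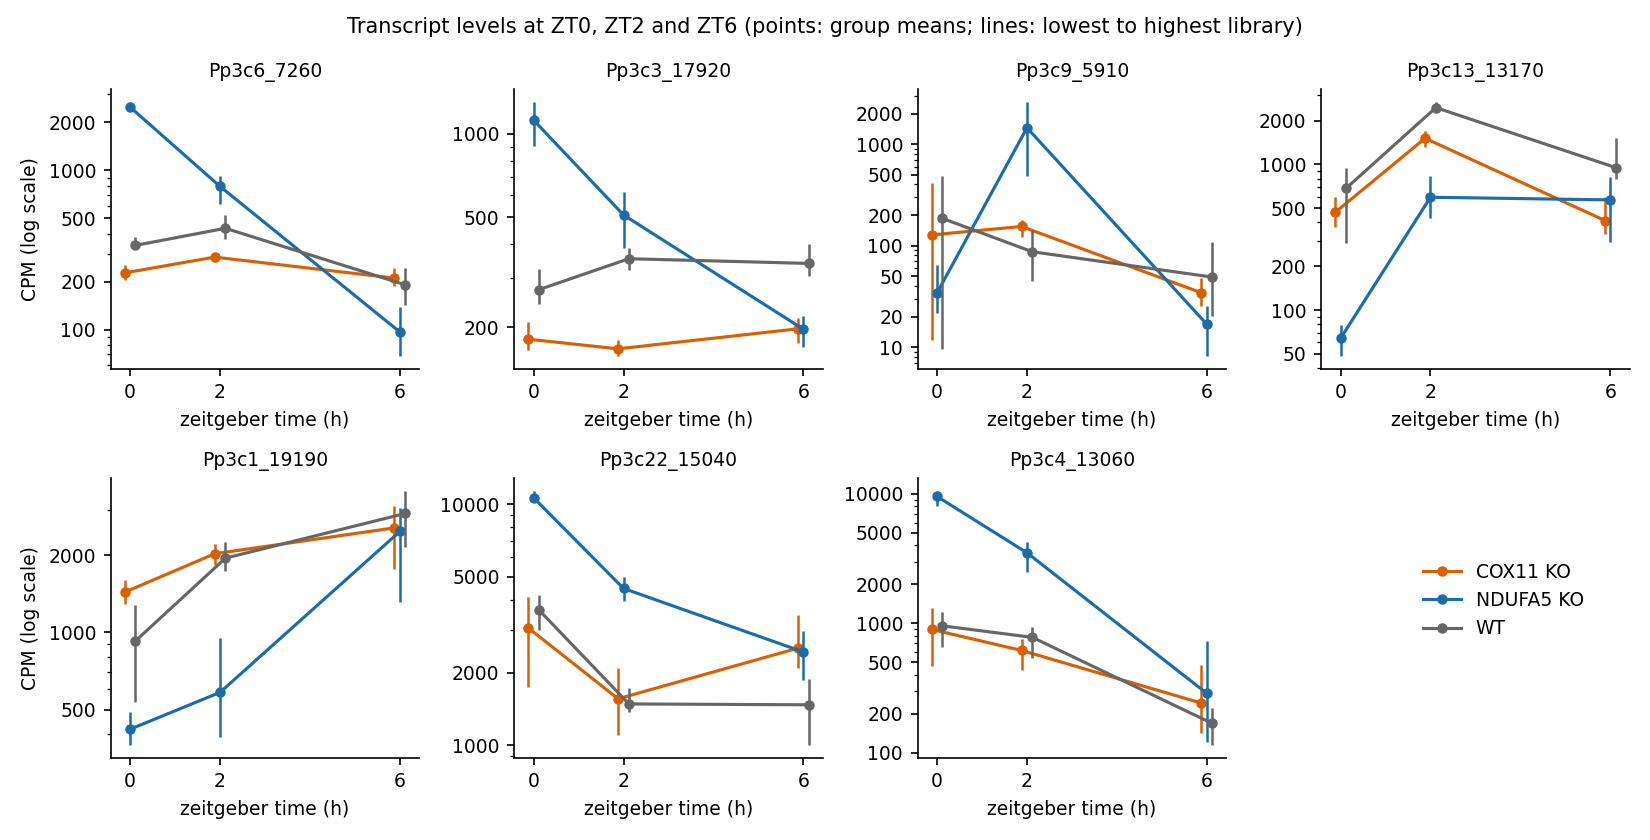
CPM on a log scale at ZT0, ZT2 and ZT6 in COX11 KO, NDUFA5 KO and WT for the 7 genes named for a change of the knockout difference with time. Points are group means and vertical lines run from the lowest to the highest library. Pp3c3_17920 has nearly equal means in the knockouts at ZT6 (197 and 196 CPM), and in Pp3c6_7260 COX11 KO is below NDUFA5 KO at ZT0 and ZT2 and above it at ZT6.

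Genes that follow the time of day in WT were taken as lists, of at least 2-fold change at a false discovery rate of 0.05 between WT times and outside the 3 prefixes. The 1086 genes higher at ZT6 than at ZT2 in WT had a median log2 fold change of 0.200 between the knockouts at ZT2, with 18.7% called higher in COX11 KO and 9.12% lower. Over all genes outside the prefixes the median was -0.013, with 12.3% called higher and 15.2% lower. The list's median was 0.366 against line 46 and 0.066 against line 48, and whether these differ was not tested. All WT libraries of ZT2 carry the code letter A and most of ZT6 carry Z. Time and letter are thus largely mixed in the lists of ZT6 against ZT2. At ZT2 line 46 carries Z and line 48 carries A, and the part of the letter in these medians was not tested. Relative to the mean of the 10 libraries, the list stood at -0.019 to 0.252 in COX11 KO, at -0.273 to -0.144 in line 46 and at 0.010 and 0.130 in line 48. COX11 KO did not overlap line 46 and did overlap line 48. Without the 2-fold minimum the list stood at 0.051 to 0.170 in COX11 KO, at -0.197 to -0.097 in line 46 and at -0.005 to 0.020 in line 48, and COX11 KO overlapped neither line.

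The 1696 genes higher at ZT2 than at ZT0 in WT had a median of 0.053, with 18.2% called higher in COX11 KO and 12.7% lower. Its median was 0.079 against line 46 and 0.115 against line 48. Relative to the mean of the 10 libraries it stood at 0.014 to 0.106 in COX11 KO, above line 46 at -0.088 to -0.042 and line 48 at -0.052 to -0.023, while without the 2-fold minimum COX11 KO, at 0.002 to 0.026, overlapped both lines. The WT libraries of ZT2 all carry the code letter A and those of ZT0 all carry Z, so time and letter cannot be told apart in the lists of these times. The 1714 genes lower at ZT2 than at ZT0 had a median of -0.018 (11.1% higher, 15.1% lower). Without the 2-fold minimum COX11 KO, at -0.029 to 0.006, overlapped both lines in this list. The 659 genes lower at ZT6 than at ZT2 had a median of -0.029 (18.1% higher, 20.5% lower). Without the 2-fold minimum this list held 2991 genes, with a median of -0.124 (11.9% higher, 26.4% lower). It then stood at -0.058 to -0.036 in COX11 KO, below line 46 at 0.059 to 0.079 and line 48 at 0.020 to 0.060. With library totals only, the 4 medians with the 2-fold minimum were 0.152, 0.077, 0.070 and 0.291, where the median outside the prefixes was 0.084. The order is the lists higher at ZT2, lower at ZT2, lower at ZT6 and higher at ZT6. Against all 5 NDUFA5 KO libraries the list of genes higher at ZT6 had the highest median of the 4 under both scalings. Against line 48 alone the highest was that of the list higher at ZT2, with 0.115 by TMM and 0.136 by library totals, where the list higher at ZT6 had 0.066 and 0.094.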

How the data were processed

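The authors deposited estimated counts in 1 table, genes by libraries, which had not been normalized. The submitters' processing notes list Bowtie2 2.2.5, SAMtools 1.6 and HTSeq 2.0.2. The build and gene models behind the counts were not given in the sources used here. Of its 57 columns of values, 47 matched a library by sample code and 10 matched none and were not used. The 5 summary lines that name no gene, 28.0% to 34.1% of the counts of the 10 knockout libraries at ZT2, were left out. Values that were not whole (over 1e-06 from a whole number, in 2085 of 32926 genes) were rounded. The tests had been planned for raw counts and were applied to the rounded estimated counts.

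Genes kept by filterByExpr over 9 groups of genotype and time (18460) were fitted in edgeR 4.0.16 (R 4.3.3, limma 3.58.1) with TMM scaling, 1 mean per group and all 47 libraries, and tested by quasi-likelihood with Benjamini-Hochberg adjustment. Lines were compared in a fit with 15 means of line and time. The comparison without prefixes Pp3c2, Pp3c25 and Pp3c27 was fitted anew. Common biological variation was 21.8%. On simulated data of the COX11 KO and NDUFA5 KO comparison at ZT2 (18460 genes), 62 of 100 genes changed 2-fold and 90 of 100 changed 4-fold were recovered, and 7 unchanged genes were called. The simulated libraries were drawn independently from the fitted model, with no effect of line or code letter and few changed genes. The simulation therefore cannot give the share of false calls among the genes called in the real libraries. Log2 CPM used a prior count of 2.

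The genes named were the 2 per direction with the largest difference of mean CPM at ZT2 among those outside the prefixes, called with at least 2-fold, above an average log2 CPM of 1, and with no overlap of libraries. For the knockouts a call against each NDUFA5 KO line was also required, and for an interaction a 2-fold call at ZT2. Planned lists by gene function were not run, as IDs were not paired with names. For 1 NDUFA5 KO library, 46-3 at ZT6, title and characteristics give different lines, and the title was followed. Alternatives were DESeq2 1.42.0, other scalings, filters and sample sets. The libraries, prefixes and lists were chosen with earlier results of these data known.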

Additional observations from a re-analysis of the deposited data

Results flagged for a closer look

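The difference between COX11 KO and NDUFA5 KO was not the same at ZT2 as at the other times, by edgeR's quasi-likelihood test of the interaction. It changed between ZT0 and ZT2 in 6557 genes and between ZT6 and ZT2 in 3520 genes. Time and code letter are mixed in both comparisons, and the part of the letter was not tested. Among the genes named, the interaction of ZT2 with ZT0 on the log2 scale was 1.98 for Pp3c6_7260, 1.02 for Pp3c3_17920, -5.10 for Pp3c9_5910 and -1.53 for Pp3c13_13170. The interaction of ZT2 with ZT6 was 1.75 for Pp3c1_19190, 1.81 for Pp3c13_13170, -1.57 for Pp3c22_15040 and -2.26 for Pp3c4_13060. These genes were chosen by their difference in mean CPM at ZT2 among genes with a called interaction. A search of 45 groups of 4 to 10 libraries for a library far from the others found 0. The search looked for a single library, in groups larger than a line of 2 or 3 libraries. It therefore cannot decide whether the 2 line 48 libraries of ZT2, which stood apart together in the 3 prefixes, are unusual.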

How the results depend on the processing

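Over 23 alternatives the count of genes called between the knockouts moved by over 1.5 times in 2. With libraries of letter Z only, where NDUFA5 KO is line 46 alone and COX11 KO has 1 library whose spread is assumed to be that of the other groups, 1401 genes were called, and 1188 without the 3 prefixes. Tested against a 2-fold minimum, 265 were called, 68 of them higher in COX11 KO, and 218 without the prefixes. With letter A only, where NDUFA5 KO is line 48 alone, the counts were 5905 and 4500. Leaving out 1 library gave 4519 to 5072 calls, and 3763 to 4425 without the prefixes. It gave 3743 to 4924 against line 46, 1721 to 4307 against line 48, 611 to 3026 between lines 46 and 48, and 0 to 3 between lines 150 and 152, where the DESeq2 test called 1. It gave 6141 to 6398 for the interaction with ZT0 and 3094 to 3636 for that with ZT6. Libraries of the same title number had deviations correlated at 0.0422, -0.321 and -0.171 between lines 150 and 46, and -0.144 between 152 and 48. For different numbers of lines 150 and 46 the correlations ran from -0.271 to 0.337. With so few libraries, these values cannot decide whether the replicate numbers of the titles pair the libraries. With the number as a block, a fit of the 10 libraries called 3654 genes, and 3313 without the prefixes, against 4528 and 4062 with no replicate block. With lines weighted equally, an alternative chosen after seeing the data, 5422 and 4423 were called. Without 46-3 at ZT6, also chosen after seeing the data, 3341 genes were called for the interaction with ZT6. Of 272 alternative values of the named genes, 264 kept direction and call, 8 kept direction and lost the call, and 0 changed direction. Without the 2-fold minimum the median of the WT list higher at ZT2 than ZT0 was -0.003 and that of the list lower at ZT6 than ZT2 was -0.124. The causes were not tested.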
